A study of Homo sapiens with 3 samples.

Results

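The SLC25 genes encode the mitochondrial carriers, and all 48 protein-coding genes whose symbol is SLC25A followed by a number were taken from the 58735 genes listed in RNA-seq count tables of DU145 cells. The listing holds 19951 protein-coding genes in all. DU145 is a human prostate cancer cell line that grows without androgen. The study used 1 control library and 2 libraries from cells with 1 of 2 short hairpins against PD-L1 (CD274), an immune checkpoint ligand. The latter are here called PD-L1 knockdown 1 and PD-L1 knockdown 2. For stable knockdown lines the study's methods describe the pLKO.1 lentiviral vector, with the empty vector as control, and selection with puromycin. Its RNA-seq methods name the sequenced control only as DU145, and the title of that library holds the words Knockdown and Control. Whether that control carried the empty vector or was selected is therefore not stated. No label gives a further treatment, time or culture replicate.

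The carriers sit mostly in the inner mitochondrial membrane and move nucleotides, phosphate, amino acids, organic acids, cofactors and metal ions between the cytosol and the matrix. They are nuclear genes, and a typical carrier is built from repeated pairs of membrane helices, each repeat bearing a signature that opens with proline and holds an acidic and a basic residue. In tumour cells the family is known for ADP/ATP exchange, citrate export for lipid synthesis and the aspartate-glutamate shuttle. In the principal coding sequences of the annotation, the members encode from 274 residues (SLC25A26) to 678 residues (SLC25A12). The signature was found in 3 copies in 27 members, in 4 copies in 3 members, in 2 copies in 8, in 1 copy in 6 and in none of the other 4, SLC25A46, SLC25A51, SLC25A52 and SLC25A53.

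The control held 14733088 counts in all, PD-L1 knockdown 1 held 14738298 and PD-L1 knockdown 2 held 15786457, and a limit of 3 counts for a gene at 0 equals 0.204, 0.204 and 0.19 CPM (counts scaled to a common library size). CD274, the targeted gene, had 204, 213 and 224 counts in that order, so neither library labelled PD-L1 knockdown had less of its RNA than the control. The paper checked the knockdown in DU145 cells by western blotting, which measures protein and not the RNA counted here. Within these counts, every direction below rests on the labels alone. The epithelial markers KRT8, KRT18, KRT19, EPCAM and CDH1 were present in all 3 libraries, at 755 counts (EPCAM) or more. KLK2, KLK3 and TMPRSS2, markers of androgen-dependent prostate cells, had 0 counts in all 3. The series text also names BCPAP, a thyroid cancer line. Of thyroid genes NKX2-1 had 1833, 2118 and 2590 counts, whereas TG, TSHR, PAX8 and SLC5A5 had at most 29 counts each. The 4 immune genes looked at summed to between 12 and 18 counts a library, with CD3E at 0. The 5 stromal genes summed to between 104 and 158 counts, nearly all from COL1A1. The control has no replicate and the 2 knockdown libraries carry different hairpins. The spread behind the p-values therefore comes from the 2 knockdown libraries alone and holds nothing on how controls vary. In the main edgeR fit this spread was shared across genes and was not each gene's own. All intervals cover counting error only. In bulk RNA a lower level in each cell and fewer cells with the RNA cannot be told apart.

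The ADP/ATP translocases show how unevenly the family was used. SLC25A4, SLC25A5, SLC25A6 and SLC25A31 exchange matrix ATP for cytosolic ADP, and their coding sequences are alike, with 78.7% identity between SLC25A5 and SLC25A6, 77.2% between SLC25A4 and SLC25A5, and 65.9% between SLC25A6 and SLC25A31. Their levels are given as FPKM (fragments scaled to the listed gene length and the library size). SLC25A6 had 139, 173 and 192 FPKM in the control, PD-L1 knockdown 1 and PD-L1 knockdown 2. SLC25A5 had 132, 152 and 149 FPKM, a range that overlaps that of SLC25A6. SLC25A4, the form of heart and skeletal muscle, had 2.20, 2.30 and 2.05 FPKM, below both in every library, and the mean of SLC25A5 was 66.0 times that of SLC25A4. SLC25A31, the testis form, had 0 counts in all 3 libraries.

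The 250 bases before the RefSeq start of each of these 4 genes are shown because the genes make related proteins of like function and stood at such different levels. They are RefSeq windows on GRCh38.p14, written 5′ to 3′ along the gene's own strand in lower case, with motif matches in capitals. The motifs searched on both strands were the CCAAT box, the TATA element TATAAA, the GC box GGGCGG, the E box CACGTG, and those of NRF1 (GCGCA, any 1 base, then GCGC), ETS factors (CCGGAAGT), YY1 (AAGATGGC) and ERR (TCAAGGTCA), and no 2 matches overlapped in these 4 windows.
SLC25A6, chrX:1392114-1392363, minus strand: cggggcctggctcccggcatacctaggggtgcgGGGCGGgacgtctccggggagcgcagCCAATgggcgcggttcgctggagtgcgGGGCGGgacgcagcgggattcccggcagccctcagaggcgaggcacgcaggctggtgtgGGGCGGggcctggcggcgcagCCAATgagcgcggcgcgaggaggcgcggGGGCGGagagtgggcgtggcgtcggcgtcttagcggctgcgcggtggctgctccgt
SLC25A5, chrX:119468194-119468443, plus strand: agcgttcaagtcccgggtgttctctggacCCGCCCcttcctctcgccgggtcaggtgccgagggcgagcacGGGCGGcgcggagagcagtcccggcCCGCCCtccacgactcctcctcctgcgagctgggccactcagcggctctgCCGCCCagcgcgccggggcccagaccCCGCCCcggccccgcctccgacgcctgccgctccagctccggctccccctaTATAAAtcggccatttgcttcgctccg
SLC25A4, chr4:185143016-185143265, plus strand: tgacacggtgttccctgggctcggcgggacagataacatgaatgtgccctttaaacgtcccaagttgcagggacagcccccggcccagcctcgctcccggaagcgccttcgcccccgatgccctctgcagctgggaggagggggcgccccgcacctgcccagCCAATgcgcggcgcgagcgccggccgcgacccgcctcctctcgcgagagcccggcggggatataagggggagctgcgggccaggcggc
SLC25A31, chr4:127730150-127730399, plus strand: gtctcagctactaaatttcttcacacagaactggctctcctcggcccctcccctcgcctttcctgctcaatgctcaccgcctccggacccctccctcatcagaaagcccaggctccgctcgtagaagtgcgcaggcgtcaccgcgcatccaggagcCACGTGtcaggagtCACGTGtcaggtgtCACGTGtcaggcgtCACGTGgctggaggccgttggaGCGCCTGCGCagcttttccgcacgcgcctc

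The window of SLC25A6 is 76.8% GC and holds 4 GC boxes and 2 CCAAT boxes. That of SLC25A5 is 73.6% GC and holds 5 GC boxes and the letters TATAAA. The window of SLC25A4 is 71.6% GC with 1 CCAAT match. The window of SLC25A31 is 63.2% GC and holds 4 copies of the E box and 1 NRF1 match, and no GC box or TATAAA. RefSeq windows were found for 40 of the 48 members (50 windows of 300 bases, some genes having more than 1 start), and 8 members, SLC25A2, SLC25A16, SLC25A30, SLC25A32, SLC25A35, SLC25A37 and SLC25A41 among them, had no entry. A GC box was present in 66% of the members' windows against 45% of all 34961 windows. CCAAT was present in 44% against 34.6% and the E box in 18% against 7.27%. The NRF1 motif was present in 10.0% against 5.8% and the ETS motif in 8.0% against 4.14%. TATAAA was present in 8.0% against 11.5%, the YY1 motif in 4.0% against 2.89%, and the ERR motif in none against 0.355%. These are matches to letters, not sites.

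**Figure D1:**
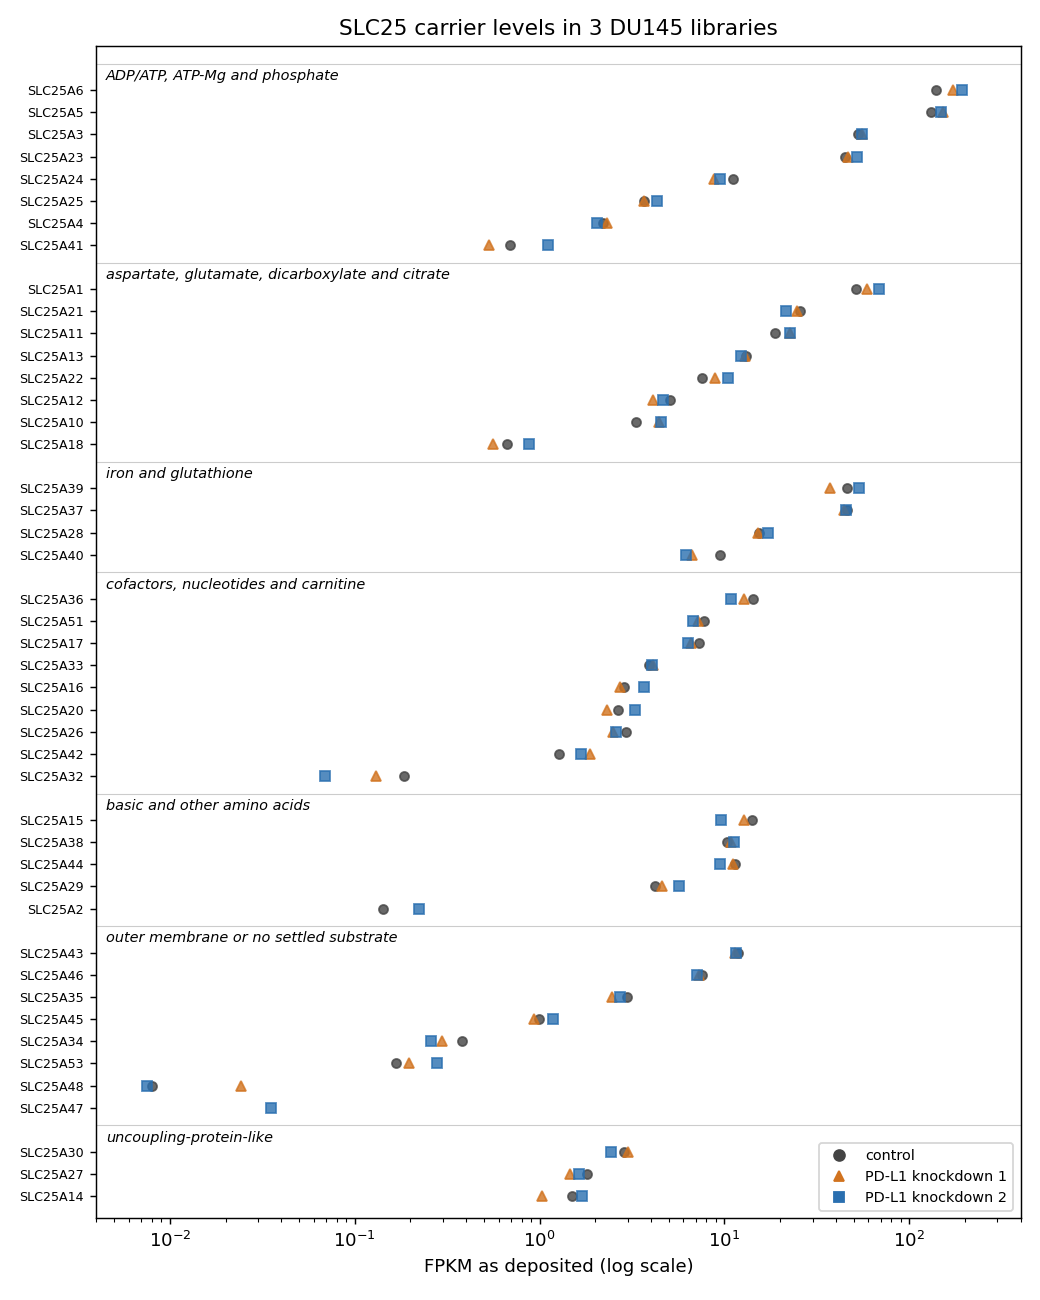
FPKM as deposited (log axis) of 45 members with at least 1 count, 1 row per gene and 1 symbol per library, grouped by what the carriers move; values of 0 cannot be drawn. SLC25A6 and SLC25A5 lie at 132 FPKM or more in all 3 libraries, and SLC25A1 is the next at 51.4 to 68.4 FPKM.

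Across the family 44 of 48 members had a count in every library, and levels ran from under 1 FPKM to 192 FPKM. The family held 42752, 43581 and 48569 counts, which is 0.290%, 0.296% and 0.308% of the libraries. SLC25A5 and SLC25A6 alone made up 36.3%, 40.8% and 40.5% of the summed FPKM of the members. After them came SLC25A1, the citrate carrier, with 51.4, 59.2 and 68.4 FPKM, and SLC25A3, the phosphate carrier that feeds ATP synthase, with 52.8, 55.8 and 55.2 FPKM. The ranges of SLC25A1 and SLC25A3 overlap, so their order is not settled by these libraries. SLC25A23, an ATP-Mg/phosphate carrier, SLC25A39, the glutathione carrier, and SLC25A37, the mitochondrial iron importer mitoferrin-1, followed at means of 47.86, 45.65 and 45.41 FPKM. SLC25A21, the oxoadipate carrier, had a mean of 24.05 FPKM, SLC25A11, the oxoglutarate carrier, 21.39 FPKM, and SLC25A28, mitoferrin-2, 15.95 FPKM. Of 45 pairs of neighbours in the order of mean FPKM, 34 had ranges that overlapped.

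The order depends on the length a count is divided by. The listed length is the union of all annotated exons, 8896 bases for SLC25A3, whose principal transcript has 1678 bases. Per principal transcript, SLC25A3 had 279.7, 295.6 and 292.8 FPKM and stood first, above SLC25A6 at 146.1, 182.0 and 201.9. SLC25A39 then moved to 4th, at a mean of 100.2 FPKM. SLC25A3, SLC25A5 and SLC25A6 together made up 46.1%, 49.9% and 48.4% of the summed level on this scale. The choice of the principal transcript was made after the data were seen.

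Many carriers come as pairs that move the same substrate, and in most pairs 1 member was well above the other in every library. SLC25A13 (citrin), 1 of the 2 aspartate-glutamate carriers, had 13.02, 12.98 and 12.25 FPKM, and its partner SLC25A12 (aralar) 5.11, 4.12 and 4.67. The mean of SLC25A13 was 2.75 times that of SLC25A12, and 1.88 times per principal transcript. The glutamate carrier SLC25A22 was 12.8 times SLC25A18, the other glutamate carrier. Mitoferrin-1 (SLC25A37) was 2.85 times mitoferrin-2 (SLC25A28). SLC25A39 was 6.13 times SLC25A40, its relative in glutathione import. These are ratios of mean FPKM over the 3 libraries, and no range overlapped in any of these pairs.

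Among the ATP-Mg/phosphate carriers SLC25A23 was 4.88 times SLC25A24, SLC25A24 was 2.53 times SLC25A25, and SLC25A25 was 4.97 times SLC25A41. The pyrimidine nucleotide carrier SLC25A36 was 3.13 times SLC25A33. SLC25A30 was 1.97 times SLC25A14, both relatives of the uncoupling proteins. The ornithine carrier SLC25A15 had 384, 345 and 279 counts, and SLC25A2, 87.6% identical in coding sequence, had 3, 0 and 5. The NAD carrier SLC25A51 had 390, 362 and 361 counts and SLC25A52, 97.6% identical, had 0 in all. Reads that match both copies of such a pair may have been assigned to 1 or dropped, since 48.2% of the 31-base words of SLC25A52 occur in other genes, and how such reads were treated is not given in the sources used here.

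**Figure D2:**
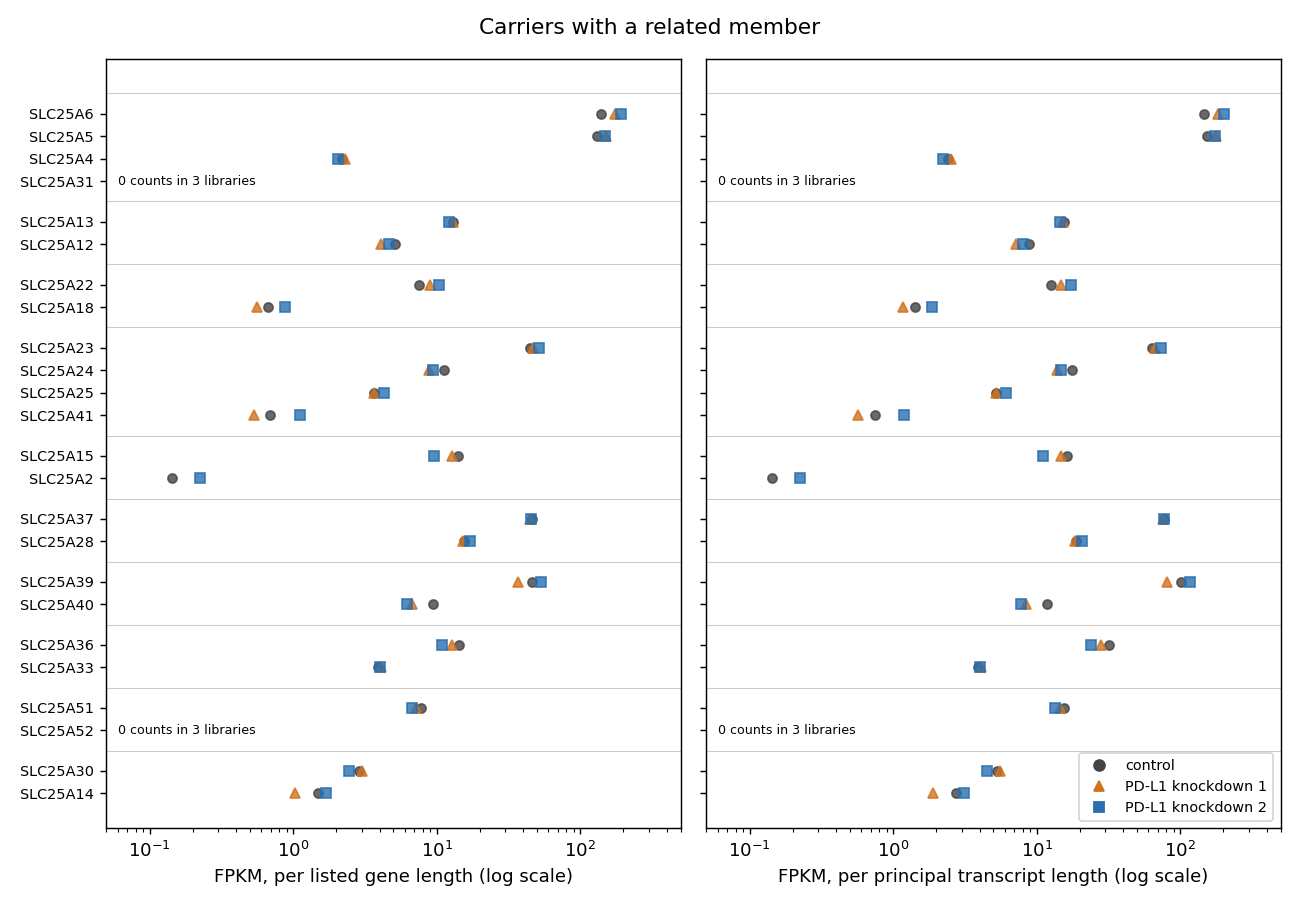
FPKM (log axis) of carriers that have a related member, 1 row per gene and 1 symbol per library, with families separated by lines; the left panel divides counts by the listed gene length and the right panel by the principal transcript length. SLC25A4 lies far below SLC25A5 and SLC25A6 on both scales, and SLC25A39 lies 6.13 times above SLC25A40 on the left and 10.7 times on the right.

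At the low end, SLC25A47, a liver carrier, had 1 count in PD-L1 knockdown 2 and 0 in the other libraries, and SLC25A48 had 1, 3 and 1. SLC25A31 and SLC25A52 were at 0, for which 3 counts are the limit. SLC25A32, the mitochondrial folate carrier, had 10, 7 and 4 counts. Of its exon bases 69.7% lie on the same strand as AC012213.5, an overlapping gene with 2, 0 and 0 counts, and 11.1% lie opposite DCAF13, so its low count is uncertain. SLC25A10, the dicarboxylate carrier, shares 46.6% of its exon bases with AC139530.2, which had 0 counts. SLC25A35 lies opposite RANGRF over 33.2% of its exon bases and SLC25A26 opposite LRIG1 over 15.5%, and without a stated strand setting their reads cannot be told from those partners. SLC25A5 shares 21.2% of its 31-base words with other genes, mainly pseudogenes, and SLC25A33 shares 31.3%.

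The study asks what follows when PD-L1 is lowered, and for the carriers the comparison sets both knockdown libraries against the control. A filter of at least 10 counts summed over the libraries kept 43 of 48 members among 19849 genes, leaving out SLC25A2, SLC25A31, SLC25A47, SLC25A48 and SLC25A52. In edgeR's quasi-likelihood test, with p adjusted over all genes by Benjamini and Hochberg's method, 0 of 43 members were called at 0.05, beside 0.247% of all genes called higher and 0.106% called lower. DESeq2 also called 0 members. At an unadjusted p under 0.05, edgeR marked 6 members, 3 higher and 3 lower (6.98% each). Of all genes it marked 6.82% higher and 4.92% lower. DESeq2 marked 2 members at that threshold, SLC25A6 and SLC25A40, and its share over all genes is not given here. With an added log2 fold change above 1 or under -1, 0 members passed, beside 1.54% of all genes higher and 0.942% lower.

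Among the 35 members with a mean of at least 100 counts, 3 were higher at an unadjusted p under 0.05 by edgeR (8.57%), SLC25A6, SLC25A1 and SLC25A22, beside 9.08% of all such genes. Another 3 were lower (8.57%), SLC25A40, SLC25A36 and SLC25A24, beside 6.56%. Both shares are near those of all genes. The log2 fold changes of these 35 ran from -0.56 (SLC25A40) to 0.47 (SLC25A42). The median over the 43 tested members was -0.02 and over all genes tested 0.00. Scaled to CPM by TMM, a normalization on the bulk of genes, 15 of 43 members (34.9%) were above the control in both knockdown libraries, beside 38% of all genes. A further 18 (41.9%) were below it in both, beside 36.5%, and 10 were between.

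SLC25A40, the relative of the glutathione carrier SLC25A39, had the smallest adjusted p of the members. It lies on the minus strand of chr7:87833568-87876357 (GRCh38). It had 713 counts in the control, 503 in PD-L1 knockdown 1 and 498 in PD-L1 knockdown 2. Both knockdown libraries lay below the control, at 0.710 times (95% interval 0.632 to 0.797) and 0.654 times (0.582 to 0.735) its scaled count. The log2 fold change was -0.56 (SE 0.15), with a Benjamini-Hochberg adjusted p of 0.0607 in edgeR's quasi-likelihood test. Its relative SLC25A39 had 2425, 1932 and 2985 counts. There the knockdown libraries lay on either side of the control, at 0.802 times (0.755 to 0.851) and 1.15 times (1.09 to 1.22), and PD-L1 knockdown 2 was 1.44 times PD-L1 knockdown 1 (1.36 to 1.52). The iron carriers SLC25A37 (5552, 5372 and 5887 counts) and SLC25A28 (403, 395 and 476) had log2 fold changes of -0.03 and 0.06.

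In the ADP/ATP, ATP-Mg and phosphate group, 5 of 8 tested members were above the control in both libraries. For this and the other groups, 38% of all genes were above it in both and 36.5% below, and the groups were not tested against them. SLC25A6, on the minus strand of chrX:1386152-1392724, had 4473, 5548 and 6577 counts. Both knockdown libraries were above the control, at 1.25 times (1.20 to 1.30) and 1.38 times (1.33 to 1.43). Its log2 fold change was 0.39 (SE 0.11), with a Benjamini-Hochberg adjusted p of 0.0949 in edgeR's quasi-likelihood test. SLC25A5 had 2933, 3370 and 3525 counts, with a fitted log2 fold change of 0.19. SLC25A3 had 6970, 7332 and 7764 counts, the most of any member, and 0.07. SLC25A24 was the 1 tested member of the group below the control in both, with 1119, 877 and 1001 counts, with a fitted log2 fold change of -0.30 (SE 0.13). The related SLC25A23 was above it in both, with 3231, 3368 and 3985 counts and 0.14.

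The carriers of aspartate, glutamate, dicarboxylates and citrate were split, with 4 of 8 above the control in both libraries and 3 below. SLC25A1 had 1599, 1833 and 2266 counts, at 1.15 times (1.08 to 1.23) and 1.33 times (1.25 to 1.42) the control, and a log2 fold change of 0.31 (SE 0.12). SLC25A22 had 523, 613 and 767 counts, with a fitted log2 fold change of 0.35 (SE 0.15). In each gene both knockdown libraries were above the single control, as in 38% of all genes, and PD-L1 knockdown 2 was the highest library. SLC25A10, with 129, 171 and 188 counts, and SLC25A11, with 744, 898 and 954, had log2 fold changes of 0.43 and 0.27. SLC25A12 had 392, 315 and 381 counts, with a fitted log2 fold change of -0.22, and SLC25A13 with 717, 712 and 718 had -0.05.

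Of the amino acid carriers SLC25A29, which moves basic amino acids, had 467, 504 and 671 counts, with a fitted log2 fold change of 0.28. The ornithine carrier SLC25A15 (384, 345 and 279 counts) had -0.34. In both genes PD-L1 knockdown 2 was further from the control than PD-L1 knockdown 1, at 1.35 against 1.09 times for SLC25A29 and 0.681 against 0.904 times for SLC25A15. SLC25A38, the glycine carrier of haem synthesis, had 413, 435 and 484 counts, and SLC25A44, the carrier of branched-chain amino acids, had 1231, 1199 and 1086. Their log2 fold changes were 0.11 and -0.15.

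Of the 10 tested carriers of cofactors, nucleotides and carnitine, 3 were above the control in both libraries, 5 below and 2 between. SLC25A36 had 2184, 1934 and 1767 counts, at 0.891 times (0.838 to 0.948) and 0.758 times (0.711 to 0.807) the control, and a log2 fold change of -0.28 (SE 0.12). SLC25A42, the coenzyme A carrier, had 86, 126 and 120 counts and 0.47 (SE 0.26), with an interval for PD-L1 knockdown 2 of 0.983 to 1.75 times that includes 1. SLC25A20, the carnitine-acylcarnitine carrier, had 78, 68 and 103 counts, on either side of the control. The 3 relatives of the uncoupling proteins had 1 member below the control in both libraries, SLC25A27 (88, 71 and 85 counts), and none above. Of 6 tested members in the outer membrane or with no settled substrate, 4 were below and 1 above. SLC25A46, a protein of the outer membrane, had 930, 887 and 929 counts, with a fitted log2 fold change of -0.08.

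**Figure D3:**
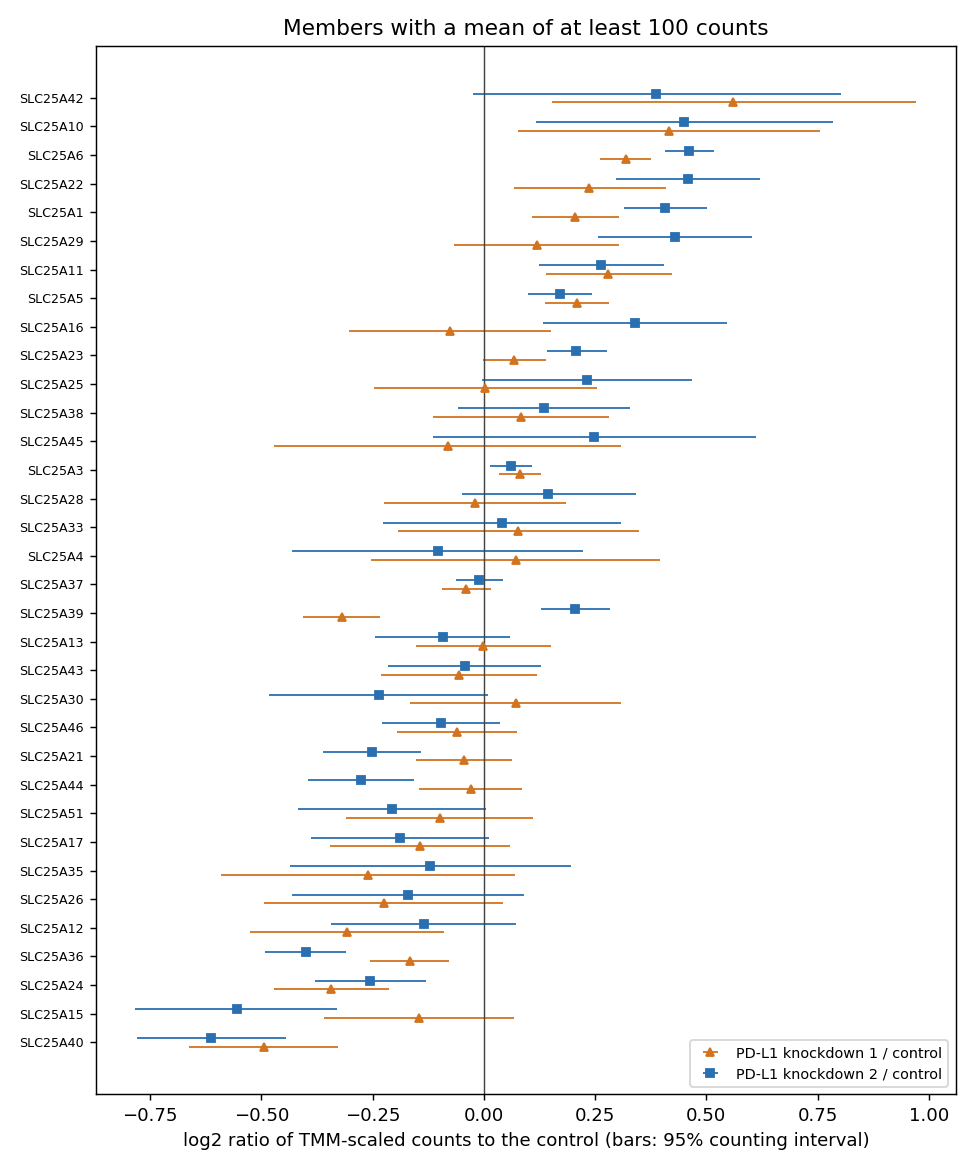
Log2 ratio of the TMM-scaled count of each knockdown library to the control for 34 of the 35 members with a mean of at least 100 counts, ordered by log2 fold change; triangles are PD-L1 knockdown 1, squares PD-L1 knockdown 2, and bars are 95% counting intervals. SLC25A40 lies at the bottom with the libraries at 0.710 and 0.654 times the control, SLC25A6 has both above it, and SLC25A39 has the libraries on opposite sides of 0.

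The hairpin libraries also differed from each other. Past 1.25-fold in either direction, 5 of 35 members (14.3%) differed between PD-L1 knockdown 1 and the control, beside 11% of all genes counted that well. Between PD-L1 knockdown 2 and the control 10 did (28.6%), beside 23.7%. Between the knockdown libraries 4 did (11.4%), SLC25A15, SLC25A16, SLC25A39 and SLC25A45, beside 10.3%. SLC25A10, SLC25A40 and SLC25A42 were past this fold in both knockdown libraries, which are set against the same control. The share of all genes past it in both is not given here, so these members cannot be set against it. Each of these comparisons sets 1 library against 1, with no test.

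The direction of the members moved with the GC content of their transcripts. The 14 well-counted members above the control in both libraries had a median GC of 59.05% (45.7% to 66.2%), and the 15 below it in both had 45% (36% to 58.6%). Pearson's r of log2 fold change with GC was 0.72 over the 35 members and 0.64 over 10859 genes. These are descriptions across genes measured in the same 3 libraries. With trends in gene length and GC removed, r was 0.06 and 0.02. The log2 fold change was then -0.33 for SLC25A40, 0.07 for SLC25A6, -0.01 for SLC25A1, 0.12 for SLC25A22, -0.07 for SLC25A36 and -0.10 for SLC25A24. It was 0.16 for SLC25A10, 0.05 for SLC25A11, 0.30 for SLC25A42, 0.10 for SLC25A29, 0.06 for SLC25A5 and -0.11 for SLC25A12, each nearer 0 than before. For SLC25A3 it was 0.19 and for SLC25A39 -0.27, each further from 0. SLC25A15 had -0.50, the lowest of the well-counted members, where it had -0.34 before. After this removal 0 members were called at a Benjamini-Hochberg adjusted p of 0.05 in edgeR's quasi-likelihood test. Over all genes the number called at that threshold was 7, against 70 before. An unadjusted p under 0.05 in that test was found for 4 members, SLC25A15, SLC25A40, SLC25A3 and SLC25A39. The share of all genes under it in this fit is not given here, so the 4 cannot be set against it. The part of GC content in these differences was not tested.

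**Figure D4:**
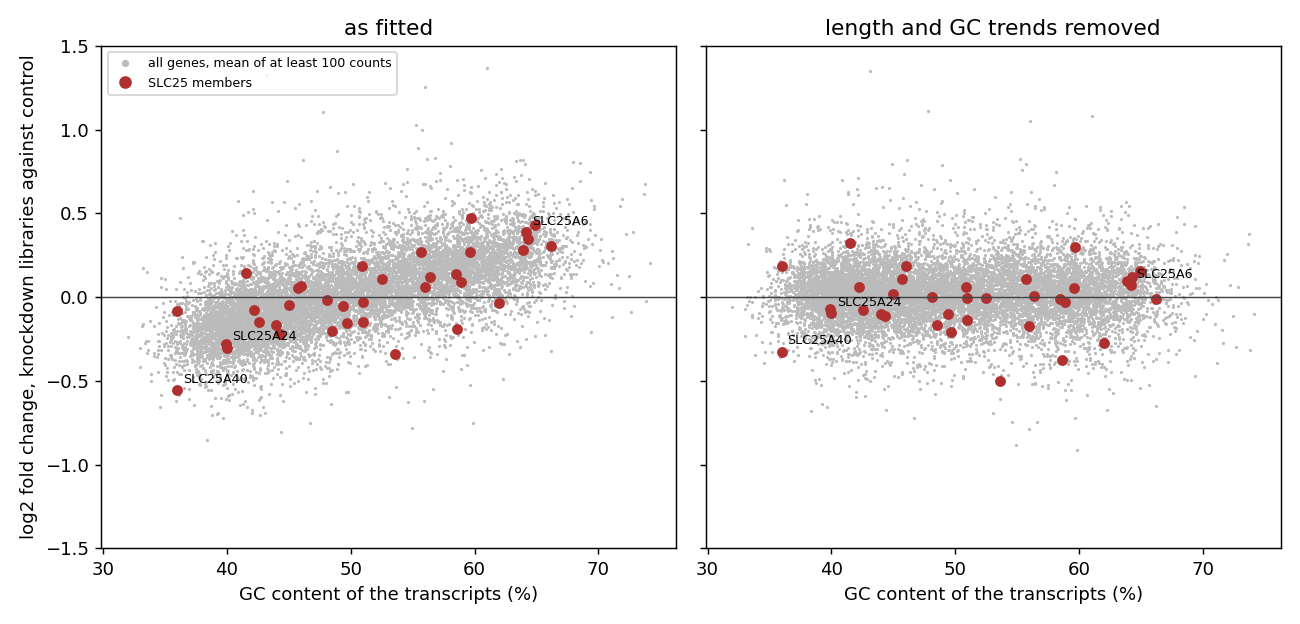
Log2 fold change of the knockdown libraries against the control by transcript GC content in percent, as fitted (left) and with length and GC trends removed (right); red points are the 35 members, grey points all genes averaging at least 100 counts, of which 5 lie outside the axis in each panel. Members follow the slope of all genes on the left (r 0.72 and 0.64) and lie around 0 at every GC content on the right (r 0.06 and 0.02).

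The carriers belong to a wider set of mitochondrial genes, and no gene of the 4 related lists was called at an adjusted p of 0.05 in the edgeR fit. Carriers of the family under other symbols (UCP1, UCP2, UCP3, MTCH1, MTCH2) had 1 of 4 tested higher at an unadjusted p under 0.05, and over all genes tested 6.82% were higher and 4.92% lower at that threshold. The 1 gene was MTCH1, an outer membrane protein, with 3007, 3377 and 4171 counts and 0.28 as its log2 fold change, which was 0.08 with the trends removed. Of 15 tested genes of the carrier import route 3 were higher, beside 6.82% of all genes and 9.08% of the well-counted ones, with log2 fold changes of 0.48 for TIMM13, a small intermembrane chaperone, 0.39 for TIMM29, a part of the carrier translocase, and 0.30 for TOMM40, the outer membrane pore. Their changes with the trends removed were 0.19, 0.23 and 0.07. TOMM6 was listed at 0 in all 3 libraries, but all 637 of its exon bases lie in AL365205.1 on the same strand (12, 22 and 30 counts), so its 0 is uncertain.

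Of 22 other mitochondrial transporters (the pyruvate carrier, sideroflexins, calcium uniporter, porins and ABC transporters) 0 passed an unadjusted p under 0.05 by edgeR and 0 by DESeq2. VDAC1, the main porin, had 4079, 4320 and 3003 counts, with PD-L1 knockdown 2 below the others. Of 21 tested partner enzymes 2 were higher, CPT2 (154, 215 and 278 counts) and IDH2 (709, 880 and 985), and 3 were lower, beside 6.82% and 4.92% of all genes. Among the lower was OAT, the aminotransferase that acts on ornithine in the matrix, with 1983, 1883 and 1522 counts and -0.26 on the log2 scale, which was -0.20 with the trends removed. CPT2, which acts after SLC25A20 in fatty acid entry, had 0.63, and 0.70 with the trends removed, while IDH2 had 0.35, and 0.15 with them removed. OTC, the enzyme that uses the ornithine carried by SLC25A15, was at 0 in all 3. The median log2 fold change was -0.10, 0.04, 0.08 and -0.01 in these lists in the order given. At an unadjusted p under 0.05 DESeq2 marked 0, 1, 0 and 1 of their genes, and its share over all genes is not given here.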

How the data were processed

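RNA of 3 DU145 libraries was sequenced on an Illumina platform. The authors deposited counts per gene without normalization, and FPKM, which were checked to equal the counts over listed gene length, up to 1 constant a library. The submitters' processing notes name Bowtie2 2.0.6, TopHat2 2.0.9, Cufflinks 2.1.1 and Cuffdiff 2.1.1. The counting tool, strand setting and genome build are not given in the sources used here, and the gene identifiers and positions are those of GENCODE on GRCh38. The labels give DMEM and the paper EMEM as the medium, and in the control's table the count column is headed RBM45.

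Genes with at least 10 counts over 3 libraries entered the edgeR 4.0.16 fit under R 4.3.3 (TMM, glmQLFit, glmQLFTest, 1 residual degree of freedom), with Benjamini-Hochberg adjustment over all genes. DESeq2 1.42.0 was an alternative, and so were other scalings, count minimums, removal of length and GC trends (means of 20 classes each) and leaving out a library. The fits were tested on simulated data. Ratios of 2 libraries have exact 95% binomial intervals. Well counted means a mean of at least 100 counts. Named in full were members past an unadjusted p of 0.05, the 10 highest by mean FPKM, the 5 largest log2 fold changes each way among well-counted members with 1 direction, and members that overlap or share over 20% of their 31-base words with another gene. Other members are named for their role. The members and lists were chosen with earlier results of these data known. Some items, among them the values of 1 member, are not reported here, and the counts over members and lists include them.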

Additional observations from a re-analysis of the deposited data

How the results depend on the processing

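No paired analysis was possible because there is only 1 control library and no label pairs it with a knockdown library. Leaving out 1 knockdown library leaves 1 library against 1, a value with no test. The median log2 fold change of the members then ran from -0.0468 (without PD-L1 knockdown 2) to 0.0604 (without PD-L1 knockdown 1). Members above the control numbered 17 to 23 and members below it 20 to 26, against 15 and 18 where both libraries had to agree, which is a stricter condition. The log2 fold change of SLC25A39 was then -0.322 to 0.205 and that of SLC25A28 -0.0226 to 0.145, the sign depending on which library was left out. With trends in length and GC removed, the log2 fold change was -0.0111 for SLC25A1, -0.0128 for SLC25A23 and -0.172 for SLC25A28, opposite in sign to the values in the report, and the cause was not tested. The other 15 of 18 members with a compared fold change kept their direction. Under DESeq2 size factors, library totals, a minimum of 1 or 100 counts, and the DESeq2 Wald test, 18 of 18 kept it. With a minimum of 1 count the median log2 fold change was 0.0223, against -0.0179. No member was called under any setting that allows a test. Over all genes, edgeR called 70, DESeq2 6, and the fit with trends removed 7. The single control library limits every fold change.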
